A study of Homo sapiens with 15 samples.

Results

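The 6 genes described here are the DNA-binding factors TEAD1, TEAD2, TEAD3 and TEAD4 and the TEAD cofactors VGLL3 and VGLL4. They were chosen by symbol from the 61533 genes of the count table, and all 6 were among the 18391 genes that passed the filter on low counts. HEK293 cells, a human embryonic kidney line named HEK293T in the sample labels, expressed the oncogenic fusion YAP-MAML2, and polyA RNA was sequenced to ask how the condensed and the diffuse fusion differ in their effect on transcription. There were 15 libraries, 3 in each of 5 groups.

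Diffuse cells carried SPARK-OFF, which consists of FKBP-mEGFP-YAP-MAML2 and nuclear mCherry-Frb, and received rapamycin for 5 h. Rapamycin joins FKBP to Frb, so that mCherry is brought to the fusion and its condensates dissolve. Condensed cells were the same SPARK-OFF cells with DMSO for 5 h. The no-mCherry cells carried the tagged fusion without mCherry, so that rapamycin was present without dissolving condensates, and they received rapamycin or DMSO for 5 h. The eGFP cells had no fusion and were labelled as mock-treated, with neither DMSO nor rapamycin named. Labels of the no-mCherry DMSO libraries disagree, since their descriptions give rapamycin, and they were grouped by title and treatment. In every comparison with eGFP cells, the fusion, the vehicle or drug, and the cell line differ together, and rapamycin also inhibits the growth kinase complex mTORC1. Whether a line was a clone, and whether replicates were separate cultures, is not given in the sources used here, so the p-values cover the spread among these libraries alone, and that spread may be technical.

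TEAD proteins bind DNA through a shared TEA domain but need a partner to act on transcription. YAP and TAZ are the activating partners that the Hippo kinases hold back, and the fusion YAP-MAML2 keeps the part of YAP that binds TEAD. The paper describes YAP fusions as always nuclear, through nuclear localization signals in the C-terminal partner. VGLL proteins bind TEAD through a short Tondu motif at a surface that overlaps the YAP site. VGLL4 is best known as a competitor of YAP that represses TEAD targets, and VGLL3 as a TEAD cofactor that can itself stimulate Hippo genes.

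Total counts per library were between 14720387 and 24797509 (median 17631701), and the 6 genes had 153 to 2694 counts each. Levels are CPM, counts set to a common library size after TMM scaling, and tests are edgeR's quasi-likelihood test with Benjamini-Hochberg adjustment over all genes tested. The threshold for calling a gene was an adjusted p below 0.05, and intervals are 95%. Reads of MAML2 and YAP1 include those of the transgene. MAML2 averaged 540 ± 31.6 CPM in diffuse, 415 ± 23.9 in condensed, 243 ± 15.7 in no-mCherry rapamycin, 220 ± 19.3 in no-mCherry DMSO and 3.63 ± 0.782 in eGFP cells (SD, n = 3 each). The fusion was thus present in the 4 groups labelled with it, at a higher transcript level in SPARK-OFF than in no-mCherry cells. MAML2 was higher in SPARK-OFF cells by 1.15 (log2, standard error 0.098, adjusted p = 8.53e-08) under rapamycin and by 0.91 (standard error 0.0983, adjusted p = 2.13e-06) under DMSO. All 5 HEK293 markers (PAX2, LHX1, NEFL, NEFM and VIM) were detected. LHX1 (group means of 0.653 to 1.91 CPM) and PAX2 (2.32 to 4.56 CPM) were at low levels that overlapped those of the muscle marker MYOD1. NEFL, NEFM and VIM were lower in both diffuse and condensed than in eGFP cells, as were LHX1 in diffuse and PAX2 in condensed cells. In each no-mCherry group 2 of the 5 markers were also lower than in eGFP cells, beside 8.79% (rapamycin) and 6.41% (DMSO) of all genes. The part of these differences in the results below was not tested. Among markers of other cell types, HBB and INS had 0 counts in every library, PTPRC, ALB and PECAM1 had at most 7 counts, and MYOD1 passed the filter at group means of 1.34 to 2.9 CPM and was lower in no-mCherry DMSO than in eGFP cells (-1.09, adjusted p = 0.0213).

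RefSeq promoter sequences (GRCh38.p14, 250 bases before to 50 bases after a start site) were held for 4 of the 6 genes, TEAD2, TEAD3, VGLL3 and VGLL4. The stretch upstream of the first exon is shown for a gene that fell and for a gene that rose in diffuse cells, 5′ to 3′ on the minus strand, with CpG dinucleotides in capitals. The TEAD2 stretch lies at chr19:49362458-49362666 and the VGLL3 stretch at chr3:86991150-86991399.
TEAD2: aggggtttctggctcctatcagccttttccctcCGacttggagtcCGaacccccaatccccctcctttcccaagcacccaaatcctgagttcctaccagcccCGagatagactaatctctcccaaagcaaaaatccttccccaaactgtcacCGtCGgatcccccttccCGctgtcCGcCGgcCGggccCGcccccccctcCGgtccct
VGLL3: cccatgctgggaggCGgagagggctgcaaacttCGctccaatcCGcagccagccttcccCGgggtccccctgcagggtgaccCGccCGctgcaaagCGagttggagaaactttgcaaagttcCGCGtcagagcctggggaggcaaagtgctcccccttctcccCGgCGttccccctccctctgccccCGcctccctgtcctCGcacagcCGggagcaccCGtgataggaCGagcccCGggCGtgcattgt
The TEAD2 stretch held 11 CpG and was 61.2% G or C, and the VGLL3 stretch held 18 CpG and was 67.6% G or C. The TEAD core motif CATTCC, searched on both strands as CATTCC and GGAATG, was in none of the 9 windows of the 4 genes. Of 35116 windows of 300 bases over all genes, 14% held it. A window without these letters says nothing of TEAD binding elsewhere at the gene.

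TEAD1, which binds muscle and heart enhancers among others, was the member with the largest difference from eGFP cells. It lies on chromosome 11 of hg38 from 12674421 to 12944737 on the plus strand and has 13 exons in its canonical transcript. TEAD1 had 110, 109 and 107 CPM in diffuse, 71.3, 97 and 88.3 in condensed, 57.7, 47.6 and 52.2 in no-mCherry rapamycin, 55.4, 54.7 and 52.3 in no-mCherry DMSO and 42.4, 52.6 and 52.7 in eGFP libraries. Every diffuse library was above every condensed one, and both sets were above all 9 other libraries, while the no-mCherry and eGFP libraries overlapped. TEAD1 rose by 1.14 in diffuse against eGFP cells (log2, standard error 0.109, adjusted p = 8.38e-08), a 2.21-fold difference. It rose by 0.80 in condensed against eGFP cells (standard error 0.11, adjusted p = 1.37e-05), a 1.74-fold difference. Against eGFP cells, the log2 difference was 0.09 in no-mCherry rapamycin cells (interval -0.14 to 0.32, adjusted p = 0.622) and 0.14 in no-mCherry DMSO cells (interval -0.09 to 0.37, adjusted p = 0.444).

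TEAD2, a family member prominent in the early embryo, moved the other way. It lies on chromosome 19 from 49340595 to 49362457 on the minus strand. TEAD2 had 15.3, 15.3 and 15.8 CPM in diffuse, 18, 15.8 and 13.3 in condensed, 20.7, 24 and 19.1 in no-mCherry rapamycin, 20.3, 21.6 and 13.6 in no-mCherry DMSO and 28.1, 25.9 and 22.8 in eGFP libraries. The diffuse and condensed libraries overlapped each other and were all below the eGFP libraries, and no-mCherry DMSO replicate 3 was low within its group. That library also had the lowest TMM factor of the 15 libraries (0.901, with a highest of 1.05), and the part of this in its low values was not tested. TEAD2 fell by 0.73 in diffuse against eGFP cells (log2, standard error 0.149, adjusted p = 0.00104). It fell by 0.70 in condensed against eGFP cells (standard error 0.149, adjusted p = 0.00127). It also fell by 0.47 in no-mCherry DMSO against eGFP cells (standard error 0.149, adjusted p = 0.0398). Without no-mCherry DMSO replicate 3 this last difference was -0.29 (adjusted p = 0.22), and it was also not called without eGFP replicate 1, 2 or 3 (adjusted p = 0.109, 0.11 and 0.0551). In no-mCherry rapamycin against eGFP cells it was -0.27 (interval -0.57 to 0.04, adjusted p = 0.229). Exons of TEAD2 share 319 bases with CD37 on the opposite strand, whose counts (2.25 to 8.38 CPM) were also lower in diffuse (-0.95) and condensed (-1.23) than in eGFP cells. The strand setting of the counting is not given in the sources used here, so reads of the shared bases cannot be told apart.

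TEAD4, which specifies the trophectoderm in the mouse embryo, lies on chromosome 12 from 2959330 to 3040676 on the plus strand. TEAD4 had 39.1, 35.9 and 37.7 CPM in diffuse, 29.9, 31.7 and 26.7 in condensed, 20.8, 19.8 and 19.3 in no-mCherry rapamycin, 27.8, 25.3 and 18.3 in no-mCherry DMSO and 25, 25.8 and 30.5 in eGFP libraries. The diffuse libraries were the 3 highest of all 15, and the condensed libraries overlapped the eGFP libraries. TEAD4 rose by 0.47 in diffuse against eGFP cells (log2, standard error 0.124, adjusted p = 0.00789), and the condensed difference was 0.12 (interval -0.14 to 0.38, adjusted p = 0.512). In no-mCherry rapamycin cells TEAD4 fell by 0.44 against eGFP cells (standard error 0.128, adjusted p = 0.0212), with no overlap of libraries. That call was lost without no-mCherry rapamycin replicate 2 (-0.44, adjusted p = 0.0679) or 3 (-0.42, adjusted p = 0.0815) and without eGFP replicate 3 (-0.35, adjusted p = 0.124). In no-mCherry DMSO against eGFP cells the difference was -0.19 (interval -0.45 to 0.07, adjusted p = 0.336).

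TEAD3, a family member known from the placenta, lies on chromosome 6 from 35473597 to 35497079 on the minus strand and was called in no comparison. TEAD3 had 17, 15.8 and 14.3 CPM in diffuse, 15.8, 16.1 and 12.2 in condensed, 15.3, 14.3 and 16.4 in no-mCherry rapamycin, 13.2, 16 and 9.48 in no-mCherry DMSO and 13.4, 15.9 and 12.6 in eGFP libraries. All 5 groups overlapped, and the lowest value was again no-mCherry DMSO replicate 3. Its log2 difference from eGFP cells was 0.16 in diffuse cells (interval -0.16 to 0.49, adjusted p = 0.487) and 0.07 in condensed cells (interval -0.26 to 0.40, adjusted p = 0.771). It was 0.13 in no-mCherry rapamycin cells (interval -0.20 to 0.46) and -0.12 in no-mCherry DMSO cells (interval -0.45 to 0.22).

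VGLL3 lies on chromosome 3 from 86876388 to 86991149 on the minus strand. VGLL3 had 18.1, 19 and 14.2 CPM in diffuse, 12.4, 14.6 and 14 in condensed, 13.7, 12 and 12.3 in no-mCherry rapamycin, 11.8, 13.5 and 8.95 in no-mCherry DMSO and 10.1, 11.3 and 13.4 in eGFP libraries. The diffuse libraries were above the eGFP libraries, with replicate 3 of the diffuse cells nearest to them, and the other 4 groups overlapped. VGLL3 rose by 0.56 in diffuse against eGFP cells (log2, standard error 0.154, adjusted p = 0.0106). The call was lost without diffuse replicate 2 (0.48, adjusted p = 0.0569) and without eGFP replicate 1 (0.47, adjusted p = 0.0555). In condensed against eGFP cells the difference was 0.24 (interval -0.08 to 0.56, adjusted p = 0.272). It was 0.13 in no-mCherry rapamycin cells (interval -0.19 to 0.45) and -0.02 in no-mCherry DMSO cells (interval -0.35 to 0.31), each against eGFP cells.

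VGLL4, the YAP competitor, lies on chromosome 3 from 11556069 to 11771350 on the minus strand and was called in no comparison. VGLL4 had 40.8, 41 and 36.4 CPM in diffuse, 35.5, 39.4 and 33.4 in condensed, 41.4, 29.6 and 37.7 in no-mCherry rapamycin, 38.6, 35.4 and 30.8 in no-mCherry DMSO and 42.7, 42.8 and 40.6 in eGFP libraries. The eGFP libraries were close together, and all condensed and all no-mCherry DMSO libraries lay below them, while 2 diffuse libraries and 1 no-mCherry rapamycin library overlapped them. The log2 difference from eGFP cells was -0.09 in diffuse cells (interval -0.33 to 0.14, adjusted p = 0.597). It was -0.22 in condensed cells (interval -0.46 to 0.02, adjusted p = 0.172). In no-mCherry cells it was -0.22 with rapamycin (interval -0.45 to 0.02, adjusted p = 0.218) and -0.27 with DMSO (interval -0.51 to -0.03, unadjusted p = 0.0314, adjusted p = 0.128). Exons of VGLL4 share 1597 bases with ATG7 on the opposite strand (22.4 to 32.4 CPM), whose log2 differences from eGFP cells were -0.27 in diffuse and -0.16 in condensed cells.

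**Figure D1:**
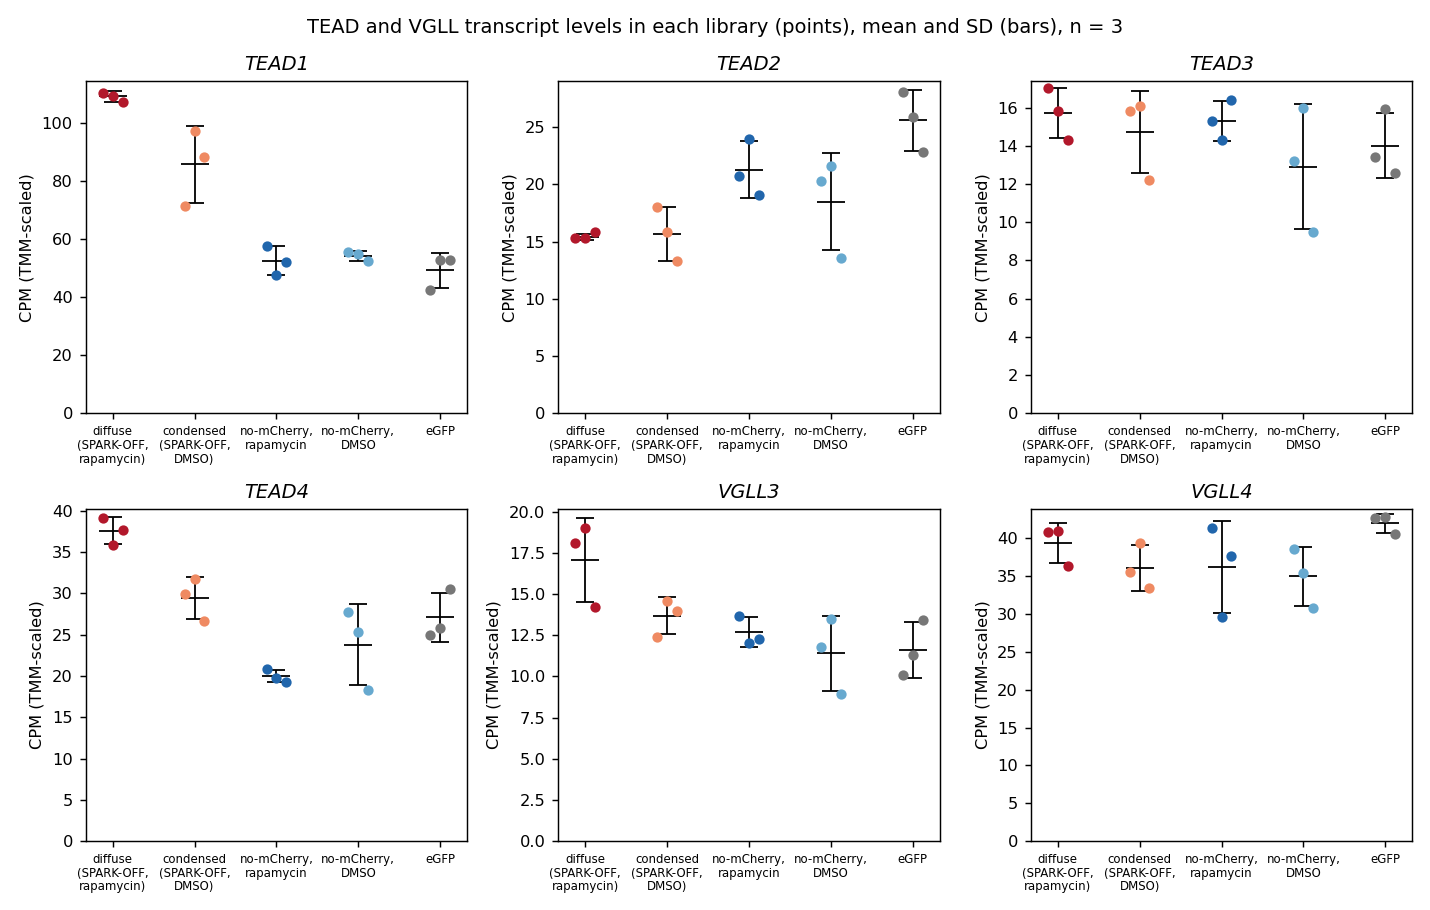
Level of each gene (CPM after TMM scaling, linear axis from 0) in the 3 libraries of the diffuse, condensed, no-mCherry rapamycin, no-mCherry DMSO and eGFP groups. Points are libraries, the wide bar is the mean and the error bar the SD. TEAD1 averaged 109 CPM in diffuse, 85.6 in condensed and 49.2 in eGFP cells, TEAD2 was lower in both than in eGFP cells, and TEAD3 overlapped in all groups.

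Counted together, 3 of the 6 members were higher and 1 was lower in diffuse against eGFP cells, where 11.4% of all genes tested were higher and 12.5% lower. In condensed against eGFP cells 1 was higher and 1 lower, beside 13% of all genes higher and 14.1% lower. In no-mCherry rapamycin against eGFP cells none was higher and 1 was lower, beside 7.62% of all genes higher and 8.79% lower. In no-mCherry DMSO against eGFP cells none was higher and 1 was lower, beside 7.08% of all genes higher and 6.41% lower. Libraries did not overlap for 4 members in diffuse against eGFP cells (40.6% of all genes), 3 in condensed (40.5%), 1 in no-mCherry rapamycin (35.1%) and 2 in no-mCherry DMSO cells (28.6%). The median log2 difference over the members was 0.32 in diffuse, 0.10 in condensed, -0.06 in no-mCherry rapamycin and -0.15 in no-mCherry DMSO cells, beside 0.01, 0.00, 0.01 and 0.01 over all genes in the same order. At the study's thresholds for a differentially expressed gene (P under 0.01, absolute log2 fold change of at least 0.58, FDR under 0.1), TEAD1 and TEAD2 passed in diffuse cells (11.6% of all genes) and in condensed cells (13.2%). No member passed in no-mCherry cells with rapamycin (7.47% of all genes) or DMSO (5.87%). The 4 comparisons share the eGFP libraries, so their values stand side by side and are not independent. In bulk RNA, a change in every cell and a change in some of the cells cannot be told apart.

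**Figure D2:**
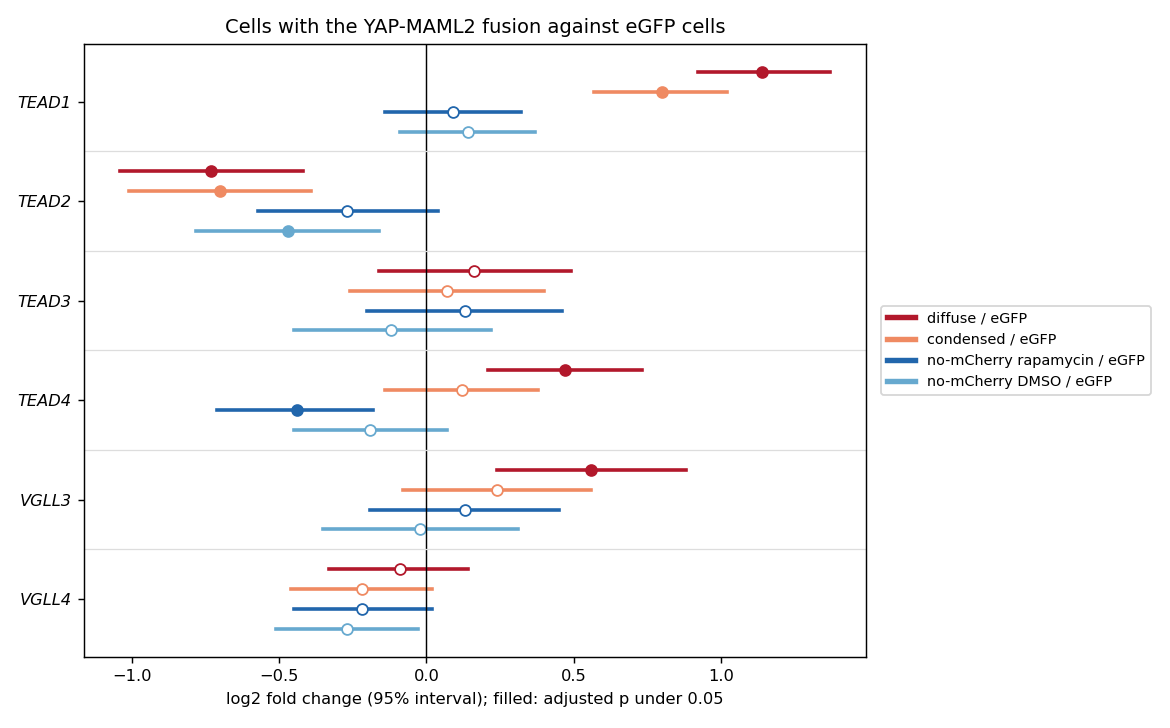
Log2 fold change (x axis) of each gene (y axis) in diffuse, condensed, no-mCherry rapamycin and no-mCherry DMSO cells, each against eGFP cells. Lines are 95% intervals and filled points passed an adjusted p of 0.05, with TEAD1 at 1.14 in diffuse and 0.80 in condensed cells and TEAD2 at -0.73 and -0.70.

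The line comparisons set the same drug or vehicle against itself, so the treatment does not differ, and the eGFP libraries enter only through the filter, the scaling and the spread that the fit shares over all groups. Under rapamycin, TEAD1 was higher in SPARK-OFF (diffuse) than in no-mCherry cells by 1.05 (log2, standard error 0.108, adjusted p = 1.12e-06), and under DMSO it was higher in SPARK-OFF (condensed) cells by 0.66 (standard error 0.109, adjusted p = 0.000527). The SPARK-OFF and no-mCherry libraries listed above did not overlap for TEAD1 under either treatment. TEAD4 was higher in SPARK-OFF than in no-mCherry cells under rapamycin by 0.91 (standard error 0.125, adjusted p = 3.73e-05), a 1.88-fold difference with no overlap. Under DMSO the TEAD4 difference was 0.31 (interval 0.05 to 0.57, unadjusted p = 0.0218, adjusted p = 0.141), and the libraries overlapped.

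TEAD2 was lower in SPARK-OFF than in no-mCherry cells under rapamycin, with a log2 difference of -0.46 (standard error 0.149, adjusted p = 0.0406). Leaving out any diffuse library lost that call (adjusted p = 0.112, 0.107 and 0.0865 without replicates 1, 2 and 3), as did leaving out no-mCherry rapamycin replicate 1 (adjusted p = 0.0715) or 2 (-0.36, adjusted p = 0.191). Under DMSO the TEAD2 difference was -0.23 (interval -0.54 to 0.08, adjusted p = 0.393). VGLL3 had a difference of 0.43 under rapamycin (interval 0.12 to 0.74, adjusted p = 0.0618), with libraries that did not overlap, and 0.26 under DMSO (interval -0.06 to 0.58, adjusted p = 0.345). The VGLL3 difference under rapamycin was called without diffuse replicate 3 (0.55, adjusted p = 0.033). For TEAD3 and VGLL4 the differences under rapamycin were 0.03 (interval -0.29 to 0.36) and 0.12 (interval -0.12 to 0.36). Under DMSO they were 0.19 (interval -0.14 to 0.52) and 0.05 (interval -0.19 to 0.29).

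Under rapamycin 2 of the 6 members were thus higher and 1 lower in SPARK-OFF cells, where 7.07% of all genes tested were higher and 6.88% lower, and libraries of 4 members did not overlap, beside 35.8% of all genes. Under DMSO 1 was higher and none lower, beside 3.78% of all genes higher and 3.25% lower, and libraries of 1 member did not overlap, beside 23.2%. The lines also differed in the transcript level of the fusion, as MAML2 showed, and in mCherry-Frb. Under rapamycin they differed in the condensates too, which were dissolved in SPARK-OFF but not in no-mCherry cells. The HEK293 markers NEFL, NEFM and VIM were also lower in SPARK-OFF than in no-mCherry cells, with log2 differences of -0.52, -0.79 and -0.50 under rapamycin and -0.47, -0.56 and -0.40 under DMSO. The parts of these in the member differences cannot be told apart.

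Rapamycin against DMSO in the same cells addresses dissolution of the condensates, with the no-mCherry cells as the drug control. No member was called in diffuse against condensed cells, where 24 of all genes tested (0.13%) were, and 3 members had an unadjusted p under 0.05. DESeq2 also called no member there. TEAD1 had a log2 difference of 0.35 (interval 0.12 to 0.57, unadjusted p = 0.00384, adjusted p = 0.489), and TEAD4 likewise 0.35 (interval 0.09 to 0.61, unadjusted p = 0.00943, adjusted p = 0.628). For both genes every diffuse library was above every condensed one, and these were the 2 members without overlap, beside 12.8% of all genes. The VGLL3 difference was 0.32 (interval 0.01 to 0.63, unadjusted p = 0.0464, adjusted p = 0.902). For TEAD2, TEAD3 and VGLL4 the differences were -0.03 (interval -0.34 to 0.28), 0.09 (interval -0.23 to 0.41) and 0.12 (interval -0.12 to 0.36). The MAML2 transcript difference was 0.38 (interval 0.18 to 0.58, unadjusted p = 8e-04, adjusted p = 0.209), with every diffuse library above every condensed one. Its part in the member differences was not tested. For the protein, the paper reports an unchanged amount of the fusion after dissolution, by western blot and by fluorescence per cell.

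In no-mCherry cells rapamycin against DMSO called none of the members, beside 1.62% of all genes, and none had an unadjusted p under 0.05 or libraries without overlap (19.4% of all genes). DESeq2 called none of them either. The TEAD4 difference was -0.25 (interval -0.52 to 0.02, adjusted p = 0.37) and the TEAD1 difference -0.04 (interval -0.27 to 0.18). TEAD2 and TEAD3 differed by 0.20 (interval -0.11 to 0.51) and 0.25 (interval -0.08 to 0.57), and VGLL3 and VGLL4 by 0.15 (interval -0.18 to 0.47) and 0.05 (interval -0.19 to 0.29).

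The rapamycin effect in SPARK-OFF cells minus that in no-mCherry cells was tested directly, and no member was called, beside 0.0979% of all genes, with 2 members at an unadjusted p under 0.05. DESeq2 called none of them. It was 0.60 for TEAD4 (interval 0.23 to 0.97, unadjusted p = 0.00272, adjusted p = 0.32) and 0.39 for TEAD1 (interval 0.07 to 0.71, unadjusted p = 0.0186, adjusted p = 0.577). Without no-mCherry DMSO replicate 3, the lowest TEAD4 library, the TEAD4 value was 0.76 and was called (adjusted p = 0.0169). The other members had values from -0.23 (TEAD2, interval -0.67 to 0.21) to 0.17 (VGLL3, interval -0.28 to 0.62).

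**Figure D3:**
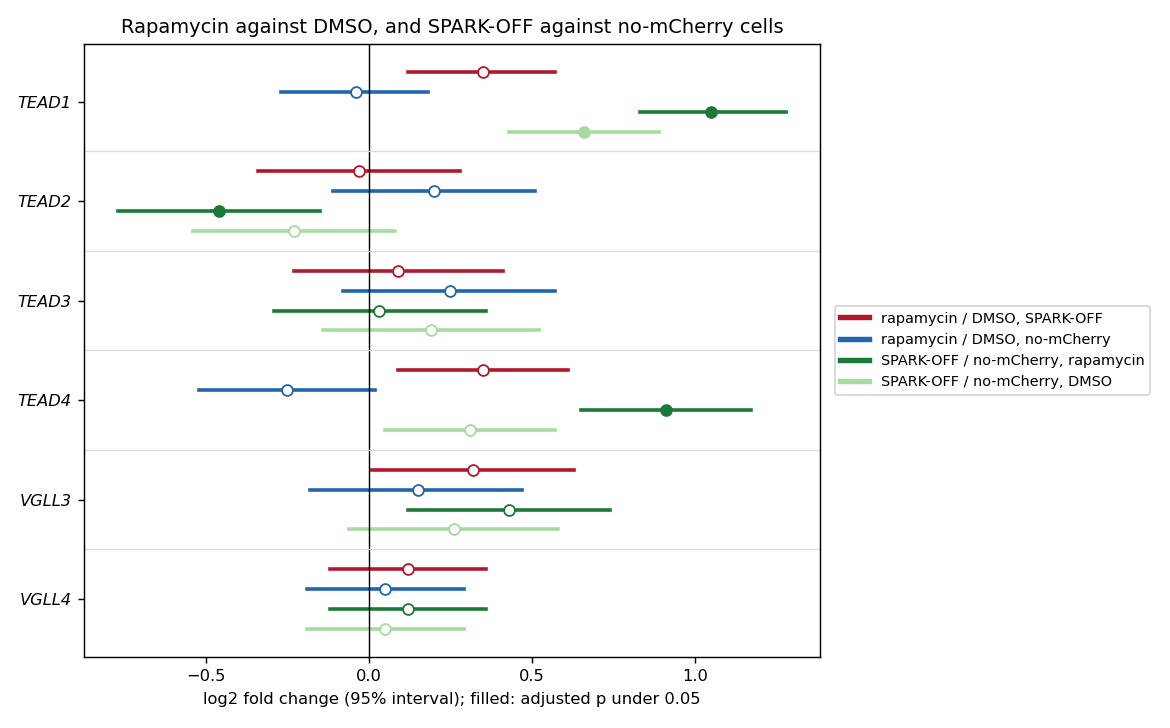
Log2 fold change (x axis) of each gene (y axis) for rapamycin against DMSO in SPARK-OFF and in no-mCherry cells, and for SPARK-OFF against no-mCherry cells under rapamycin and under DMSO. Lines are 95% intervals and filled points passed an adjusted p of 0.05, which no rapamycin comparison did, while TEAD1 passed between the lines at 1.05 under rapamycin and 0.66 under DMSO.

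To set the genes against each other, CPM were divided by the kilobases of exon of each gene in GENCODE. TEAD4 then had the highest level of the 6 in every group, with 16.5 CPM per kilobase in diffuse, 12.9 in condensed, 8.77 in no-mCherry rapamycin, 10.4 in no-mCherry DMSO and 11.9 in eGFP cells. VGLL3 had the lowest, with 1.34, 1.07, 0.995, 0.896 and 0.91 in the same order of groups. VGLL4 was at 5.47 in diffuse and 5.84 in eGFP cells, beside 5.15 and 4.58 for TEAD3. The closeness of VGLL4 to TEAD3 depends on the length used. All exons of VGLL4 cover 7199 bases, but its longest transcript has 3775. For TEAD3 these lengths are 3049 and 2986 bases. With the longest transcript as length, VGLL4 would therefore stand further above TEAD3.

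The make-up of the TEAD pool was compared as shares. TEAD1 held 27.5 ± 0.552% of the length-scaled TEAD transcripts in diffuse, 25.8 ± 3.9% in condensed, 19 ± 1.65% in no-mCherry rapamycin, 19.9 ± 3.32% in no-mCherry DMSO and 15.5 ± 1.49% in eGFP cells (SD, n = 3 each). TEAD2 held 14 ± 0.536% in diffuse, 17 ± 2.16% in condensed, 27.6 ± 3.06% in no-mCherry rapamycin, 23.8 ± 1.51% in no-mCherry DMSO and 29 ± 3.7% in eGFP cells. The order of TEAD1 and TEAD2 within the length-scaled pool was thus turned round in diffuse and condensed cells relative to no-mCherry and eGFP cells. The TEAD1 (17.8% to 23.7%) and TEAD2 (22.2% to 25.2%) shares overlapped, however, in no-mCherry DMSO libraries. TEAD4 held 44.6 ± 0.997% in diffuse, 41.7 ± 0.608% in condensed, 34 ± 0.479% in no-mCherry rapamycin, 40.2 ± 2.29% in no-mCherry DMSO and 40.1 ± 3.83% in eGFP cells. TEAD3 held 13.9 ± 0.91% in diffuse, 15.5 ± 1.3% in condensed, 19.5 ± 1.71% in no-mCherry rapamycin, 16.2 ± 1.8% in no-mCherry DMSO and 15.4 ± 1.76% in eGFP cells. The no-mCherry rapamycin libraries thus stood apart, with TEAD4 shares (33.7% to 34.5%) below every other library and TEAD3 shares (18.1% to 21.4%) above all diffuse, condensed and eGFP libraries.

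The sum of the 4 TEAD genes was 37 ± 1.04 CPM per kilobase in diffuse, 31 ± 2.56 in condensed, 25.8 ± 0.68 in no-mCherry rapamycin, 25.9 ± 4.63 in no-mCherry DMSO and 29.7 ± 0.775 in eGFP cells. The diffuse sums (36.3 to 38.2) were above all the others, and the condensed sums (28.5 to 33.6) overlapped the eGFP sums (28.8 to 30.2). VGLL4 per TEAD transcript was 0.148 in diffuse (range 0.138 to 0.157), 0.162 in condensed (0.159 to 0.163), 0.195 in no-mCherry rapamycin (0.158 to 0.218), 0.189 in no-mCherry DMSO (0.171 to 0.208) and 0.197 in eGFP cells (0.187 to 0.206). The diffuse and condensed ratios were all below the eGFP ratios. These sums, shares and ratios were given no test. They depend on the length used, and without length scaling TEAD1 held the largest share of the TEAD counts in every group (61.3% in diffuse and 42.4% in eGFP cells). TEAD2 then held 8.71% in diffuse and 22.2% in eGFP cells, so the order of TEAD1 and TEAD2 was not turned round.

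**Figure D4:**
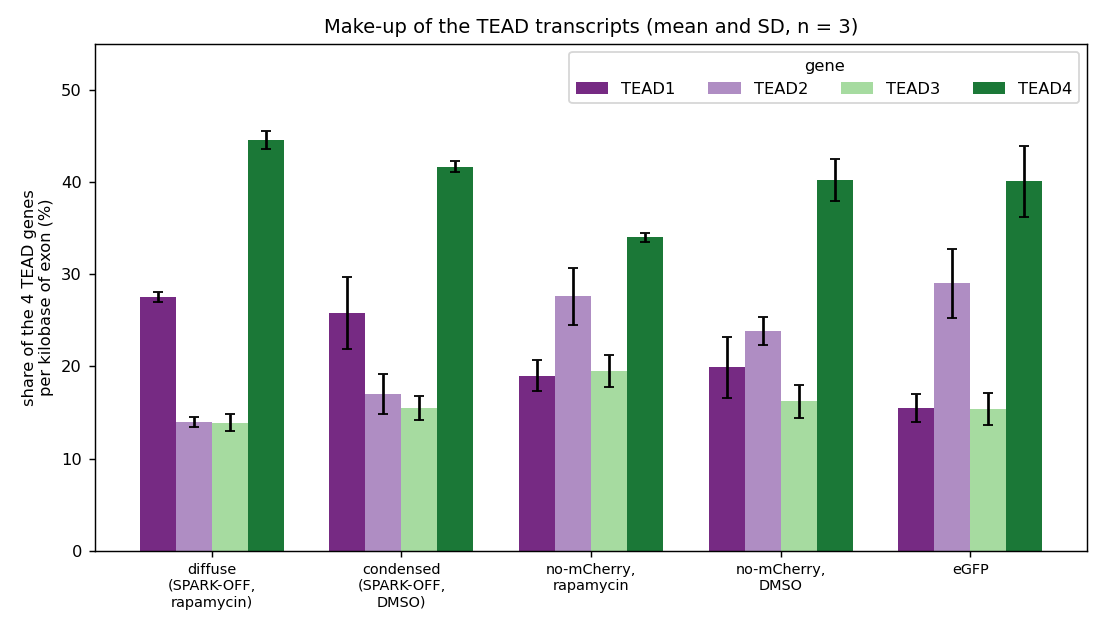
Share of each TEAD gene in the sum of the 4 TEAD genes per kilobase of exon (y axis, percent, from 0), by group. Bars are means and error bars SD of 3 libraries. TEAD1 stood above TEAD2 in diffuse (27.5% and 14%) and condensed cells and below it in eGFP cells (15.5% and 29%). Without length scaling TEAD1 stood above TEAD2 in every group.

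The members' patterns over the 15 libraries were compared as a description, with Pearson's r of log2 CPM. The libraries fall into 5 groups, so r can reflect differences between groups, and it can also reflect single extreme libraries. TEAD1 and VGLL3 had an r of 0.80, TEAD1 and TEAD4 0.78, TEAD4 and VGLL3 0.72 and TEAD1 and TEAD2 -0.74. With TEAD1, TEAD3 had an r of 0.32 and VGLL4 0.12. Among 10869 protein-coding genes of at least 5 CPM, the genes most like TEAD1 were CBX6 (r = 0.952), STS (0.952) and CAVIN1 (0.946). Those most like TEAD2 were NMRAL1 (0.953), CRAT (0.941) and SCRN2 (0.939). MYADM (0.941), ANKRD33B (0.939) and ILDR2 (0.936) were most like TEAD4, and SPTAN1 (0.943), AHNAK (0.925) and FLNA (0.924) most like VGLL3. FOXN3 (0.897) and ECPAS (0.873) were most like VGLL4, and THTPA (0.845), DNAJC22 (0.839) and SKIDA1 (0.835) most like TEAD3. Spearman's rho, which uses ranks, was lower for these 3 TEAD3 pairs, at 0.679, 0.514 and 0.696, beside 0.814 or more for the pairs of other members. CAVIN1 builds caveolae, and SPTAN1, AHNAK and FLNA are proteins of the submembrane and actin cytoskeleton.

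Among 9 other genes whose proteins bind TEAD, 7 could be tested, and 1 was higher and 1 lower in condensed against eGFP cells, a share near that of all genes (13% higher and 14.1% lower). The higher one was YAP1, whose counts hold the transgene, and the lower one NCOA2, a nuclear receptor coactivator (-0.58, adjusted p = 0.00531). In diffuse against eGFP cells 1 was higher, again YAP1, and none was lower (11.4% and 12.5% of all genes). In both no-mCherry groups YAP1 was higher than in eGFP cells, and NCOA2 was lower with DMSO (-0.45, adjusted p = 0.0455). WWTR1, the gene of TAZ, had 24.5 ± 2.97 CPM in diffuse, 22.6 ± 0.316 in condensed, 21.3 ± 1.34 in no-mCherry rapamycin, 21.4 ± 3.32 in no-mCherry DMSO and 22.8 ± 1.91 in eGFP cells and was called in no comparison. Of the remaining VGLL genes, VGLL1 had at most 1 count in any library, and VGLL2 averaged between 1.26 and 2.52 CPM per group and was called in no comparison. FAM181A had 0 counts in every library.

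The Hippo list held 23 genes of kinases, scaffolds, inhibitors of YAP and LIM proteins. Of these, 11 were higher and 2 lower in diffuse, and 8 higher and 2 lower in condensed cells, each against eGFP cells. Of all genes tested, 11.4% were higher and 12.5% lower in diffuse, and 13% higher and 14.1% lower in condensed cells. AMOTL2, an angiomotin that holds YAP at junctions, rose by 3.97 in diffuse and 4.37 in condensed cells. AJUBA, a LIM protein that restrains the LATS kinases, rose by 2.50 and 2.27, and LATS2, a kinase that phosphorylates YAP, by 1.92 and 2.12, in diffuse and condensed cells. The list thus mixes genes that restrain YAP with genes such as AJUBA that act against LATS, so its counts give no direction of Hippo activity. In no-mCherry against eGFP cells 5 were higher and 3 lower with rapamycin (7.62% and 8.79% of all genes), and 6 higher and 2 lower with DMSO (7.08% and 6.41%).

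Of 22 TEAD-YAP target genes, 16 were higher and 2 lower in diffuse, and 15 higher and 2 lower in condensed cells, each against eGFP cells, beside the same shares of all genes as for the Hippo list, with median log2 differences of 1.88 and 2.05. In no-mCherry rapamycin against eGFP cells 13 were higher and none lower (7.62% and 8.79% of all genes), with a median of 1.16. In no-mCherry DMSO against eGFP cells 12 were higher and 1 lower (7.08% and 6.41% of all genes), with a median of 1.10. At least 12 of the 22 targets were thus higher in each of the 4 fusion groups against eGFP cells. TEAD1 was called against eGFP cells in the SPARK-OFF groups alone, and it also differed from the no-mCherry cells by the tests above. Many targets differed between the lines too. Under DMSO 12 were higher and 1 lower in SPARK-OFF than in no-mCherry cells (3.78% and 3.25% of all genes). Under rapamycin 12 were higher and 3 lower (7.07% and 6.88% of all genes). Beside 0.13% of all genes called in diffuse against condensed cells, 3 targets were lower and none higher. They were ANKRD1 (-1.27, adjusted p = 3.03e-06), CCN2 (-0.70, adjusted p = 0.000115) and CCN1 (-0.65, adjusted p = 8.99e-05), while the TEAD1, TEAD4 and VGLL3 differences in that comparison were positive and not called. AMOTL2, LATS2, AJUBA and PTPN14 are in both the target and the Hippo list, so their calls are counted in both.

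AP-1 factors often sit beside TEAD at enhancers. Of 7 AP-1 genes, 4 were higher and 1 lower in diffuse, and 4 higher and 2 lower in condensed cells, each against eGFP cells, where 11.4% (diffuse) and 13% (condensed) of all genes were higher and 12.5% and 14.1% lower. FOSL2 rose by 2.69 in diffuse and 2.24 in condensed cells, FOS by 1.74 and 1.60, and FOSB by 1.41 and 1.50. The lower ones were JUN in both (-0.42 in diffuse and -0.59 in condensed cells) and JUND in condensed cells (-0.32). JUN had group means of 212 to 319 CPM, against 1.94 to 6.48 for FOS. In each no-mCherry group 1 was higher and none lower than in eGFP cells, namely FOSL2 (1.20 with rapamycin and 1.17 with DMSO). Of all genes, 7.62% were higher and 8.79% lower with rapamycin, and 7.08% and 6.41% with DMSO. In SPARK-OFF against no-mCherry cells 3 AP-1 genes were higher and 1 lower under rapamycin (7.07% and 6.88% of all genes), and 4 higher and 1 lower under DMSO (3.78% and 3.25%). No AP-1 or Hippo gene was called in diffuse against condensed cells.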

How the data were processed

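PolyA RNA was sequenced in 15 libraries. The deposited values are raw counts for each gene, made by the authors without normalization. Per the methods, reads were trimmed with fastp and mapped to hg38 with STAR, and the submitters' processing notes name FastQC, HTSeq and edgeR. The sources used here give neither the annotation nor the strand setting. All columns were mapped to samples by name. Counts of the 61533 genes were fitted in R 4.3.3 with edgeR 4.0.16 (filterByExpr, TMM, glmQLFit and glmQLFTest, all 15 libraries, group means, no block), with Benjamini-Hochberg adjustment over 18391 genes. Symbols, coordinates and exon lengths are from GENCODE 44. The common biological coefficient of variation was 0.111. Over libraries of 14720387 to 24797509 counts, members had 153 counts or more. Standard errors are Wald errors.

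Members, lists and tests were chosen with earlier results of these data known. Genes named are the 6 members, MAML2 and YAP1, the 3 genes most like each member, and from each list up to 3 called genes with the largest change in condensed against eGFP cells. WWTR1, VGLL1, VGLL2, FAM181A, JUN, JUND, CD37, ATG7 and the marker genes were named beside these. A marker gene and a gene most like a member are not reported here. Alternatives were RLE and upper-quartile scaling, no filter, DESeq2 1.42.0, fits of only the compared groups, a replicate block, each library left out, and other gene lengths. The steps were tested on simulated data.

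Same-numbered libraries of different groups showed no shared deviation (r between -0.14 and 0.1 over 30 pairs). That cannot show whether the numbers pair the samples by culture or day, which the sources used here do not give.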

Additional observations from a re-analysis of the deposited data

Results flagged for a closer look

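The SPARK-OFF and no-mCherry cells, which both carry the fusion, differed in 4 of the values above when given the same treatment. Each was tested as the difference itself with edgeR's quasi-likelihood test. The TEAD1 difference was 1.05 under rapamycin and 0.66 under DMSO, the TEAD4 difference 0.91 under rapamycin and the TEAD2 difference -0.46 under rapamycin, all on the log2 scale as SPARK-OFF over no-mCherry cells. The TEAD2 call (adjusted p = 0.0406) was lost in 5 of 12 alternatives, with an adjusted p of up to 0.191. TEAD1 and TEAD4 were higher in 3 of 3 SPARK-OFF libraries than in any no-mCherry library in these comparisons, and TEAD2 was lower in 3 of 3. MAML2 was also higher in SPARK-OFF cells (1.15 under rapamycin and 0.91 under DMSO), and its part in these differences was not tested. Under rapamycin the lines differed in the state of the condensates as well, and the parts of line, fusion level and dissolution cannot be told apart.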

How the results depend on the processing

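Of 144 alternative values for the 12 member calls, 129 kept the call and direction, 15 lost the call and none reversed. TEAD1 and TEAD2 in diffuse and condensed against eGFP cells, TEAD4 in diffuse against eGFP cells, TEAD1 in both line comparisons and TEAD4 between lines under rapamycin were called under every alternative run. Of 540 values for the 42 differences not called, 4 passed the threshold and 19 changed sign. In fits of only the compared groups, no member was called in no-mCherry DMSO against eGFP cells (0, against 1; TEAD2 -0.46, adjusted p = 0.131), and the VGLL3 line difference under rapamycin was called (0.43, adjusted p = 0.0191), as with DESeq2 (0.44, adjusted p = 0.0338). With upper-quartile factors the TEAD1 rapamycin difference in no-mCherry cells was 0.0059, against -0.04. No scaling moved the median of all genes by more than 0.051 (log2).

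The number of genes called in diffuse against condensed cells was 24, and it was 61 without a filter, 68 with DESeq2, 64 with only the compared groups and 11 to 19 with a library left out. For the difference between rapamycin effects it was 18, and it was 51 without a filter, 94 with DESeq2, 8 with the replicate block and 2 to 82 with a library left out. For rapamycin against DMSO in no-mCherry cells it was 298, and it was 760 with DESeq2, 3 with only the compared groups and 83 to 392 with a library left out. With only the compared groups it was 583 (against 2481) in no-mCherry DMSO against eGFP cells, and 450 (against 1293) under DMSO and 3912 (against 2566) under rapamycin between the lines. With a library left out these were 972 to 3342, 673 to 1622 and 1547 to 1874, and 1728 to 2939 (against 3019) in no-mCherry rapamycin against eGFP cells. The replicate block changed no member call.

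With upper-quartile factors, 129 genes were higher and 123 lower for rapamycin against DMSO in no-mCherry cells (83 and 215 with TMM), and 1701 and 1236 in no-mCherry rapamycin against eGFP cells (1402 and 1617 with TMM). With a library left out, 0 to 1 members were called in each no-mCherry group against eGFP cells and in the difference between rapamycin effects. Some differences that were not called changed sign with a library left out. In diffuse against condensed cells they ranged from -0.13 to 0.08 for TEAD2 and -0.02 to 0.16 for TEAD3. Between the lines they ranged under rapamycin from -0.02 to 0.10 for TEAD3 and -0.0072 to 0.23 for VGLL4, and under DMSO from -0.03 to 0.13 for VGLL4. For rapamycin against DMSO in no-mCherry cells they were -0.11 to 0.02 for TEAD1, -0.002 to 0.29 for VGLL3 and -0.05 to 0.18 for VGLL4. For the difference between rapamycin effects they were -0.35 to 0.03 for TEAD3 and -0.06 to 0.17 for VGLL4. Against eGFP cells they were -0.0052 to 0.16 for TEAD1 in no-mCherry rapamycin cells, and -0.31 to 0.07 for TEAD3 and -0.16 to 0.13 for VGLL3 in no-mCherry DMSO cells. The causes of these changes were not tested.

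The length of the longest transcript gave a TEAD4 share of 48.7% in diffuse and 43.7% in eGFP cells and a TEAD3 share of 11.7% and 12.9%. With 3 libraries a group, the smaller differences have wide intervals.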
